A study of Homo sapiens with 18 samples.

Results

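The 7 genes described here encode the FOS and JUN proteins that make up AP-1: FOS, FOSB, FOSL1, FOSL2, JUN, JUNB and JUND. They were chosen by symbol from the 60623 genes of a human RNA sequencing table, and all 7 were among the 16414 genes that passed a filter on low counts. RNA came from HEK-293E cells, a single human embryonic kidney cell line that grows in DMEM with 10% fetal bovine serum (FBS). The 6 groups held 3 libraries each, 18 in all. Cells with Torin1 had been starved overnight in DMEM with 0.1% FBS, or starved and then fed with regular growth medium for 1 h or 4 h. Cells without Torin1 were starved, fed for 1 h or fed for 4 h in the same way. Torin1 is an inhibitor of the kinase mTOR. The sources used here give neither its dose nor how long it was applied.

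AP-1 is a family of dimers joined through leucine zippers. JUN proteins pair with each other or with FOS proteins, whereas FOS proteins need a JUN partner to bind DNA. FOS, FOSB and JUN are textbook immediate early genes: serum activates their transcription through factors already present in the cell, and their RNAs are unstable. JUND is known for a steady level in many cell types. FOSL1 and FOSL2, also called FRA-1 and FRA-2, lack the strong activation domain of FOS.

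Library totals ranged from 10510689 to 13690035 counts. A level of 3 counts in a library, roughly the 95% upper bound for a count of 0, came to 0.219 to 0.285 CPM (counts scaled for depth). This floor covers counting error only. Nothing in the labels says whether the 3 libraries of a group came from separate cultures, and the spread that p values rest on may be technical. All 8 markers of HEK293 and embryonic kidney cells passed the filter, with a summed level of 323 to 415 CPM per library. Of the markers of other cells, none of 5 endothelial genes passed, 2 of 6 immune genes passed at a summed 1.32 to 5.92 CPM over all 6, and 5 of 7 fibroblast genes passed at a summed 8.36 to 43.5 CPM over all 7. Starved replicate 1 without Torin1 had the highest level of its group for each of the 7 AP-1 genes, so values without it are given where they change a call or move a printed change by over 1.5 times. It also had the highest summed fibroblast markers, at 43.5 CPM, against 11.2 and 10.6 CPM in starved replicates 2 and 3, and the part of this in the AP-1 levels was not tested. The next highest, 41.3 CPM, was in 4 h fed replicate 2 with Torin1, which was not the highest of its group for any AP-1 gene except FOSL1. RNA was measured in bulk, so a change in RNA per cell and a change in the share of cells that express a gene cannot be told apart.

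The promoters of 6 of the 7 genes were found in RefSeq (GRCh38.p14), each read as the 250 bases before the gene's start. FOS, FOSB, FOSL2 and JUN are printed because their RNAs were the ones higher after feeding in at least 1 comparison. Capitals mark TGACGT, the core of the cyclic AMP response element, in the first 3, and TGACATCA, an AP-1-like element, in JUN. They lie at chr14:75278578-75278827 on the plus strand for FOS, chr19:45467746-45467995 plus for FOSB, chr2:28392608-28392857 plus for FOSL2 and chr1:58784048-58784297 minus for JUN.
FOS: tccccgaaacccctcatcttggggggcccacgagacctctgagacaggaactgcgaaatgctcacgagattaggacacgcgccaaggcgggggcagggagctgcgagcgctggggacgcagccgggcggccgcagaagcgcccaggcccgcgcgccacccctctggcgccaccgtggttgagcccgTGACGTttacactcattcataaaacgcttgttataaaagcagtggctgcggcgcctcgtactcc
FOSB: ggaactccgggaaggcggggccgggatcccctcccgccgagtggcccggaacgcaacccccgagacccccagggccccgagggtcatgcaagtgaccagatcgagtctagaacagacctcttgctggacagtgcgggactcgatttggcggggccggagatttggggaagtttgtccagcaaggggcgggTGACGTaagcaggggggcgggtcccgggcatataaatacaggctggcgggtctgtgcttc
FOSL2: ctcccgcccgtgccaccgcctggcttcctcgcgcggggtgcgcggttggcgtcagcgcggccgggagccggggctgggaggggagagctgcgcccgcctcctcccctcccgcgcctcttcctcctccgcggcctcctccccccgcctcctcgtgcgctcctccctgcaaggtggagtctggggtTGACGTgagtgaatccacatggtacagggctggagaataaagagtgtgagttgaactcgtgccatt
JUN: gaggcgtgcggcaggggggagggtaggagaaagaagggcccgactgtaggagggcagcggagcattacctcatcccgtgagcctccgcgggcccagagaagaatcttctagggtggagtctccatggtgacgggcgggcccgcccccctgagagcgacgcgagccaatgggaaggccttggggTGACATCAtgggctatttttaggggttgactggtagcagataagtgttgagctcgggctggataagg
Sequences were searched on both strands, and distances are from the start to the motif's first base on the gene's strand. TGACGT began 64 bases before the start in FOS, 60 in FOSB and 66 in FOSL2, and TGACATCA began 67 bases before the start in JUN. JUND held TGACGT at 200 and 198 bases, overlapping matches on opposite strands, and again at 87 bases. JUNB held neither. A TATAAA match stood 33 bases before the start in FOS, 30 in FOSB and 31 in JUNB. Among 35116 promoters of the same length, 7.1% held TGACGT, 2.37% TGACATCA, 10.7% TATAAA and 42.6% GGGCGG, the GC box, which all 6 windows but that of JUNB held. The AP-1 consensus TGANTCA, in 6.57% of all promoters, and the CArG box of serum response factor, in 1.16%, had no match in the 6 windows. Sites farther than 250 bases before the start were not searched, so these genes may hold such sites outside the windows. A match is a description of letters, and binding was not measured.

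**Figure D1:**
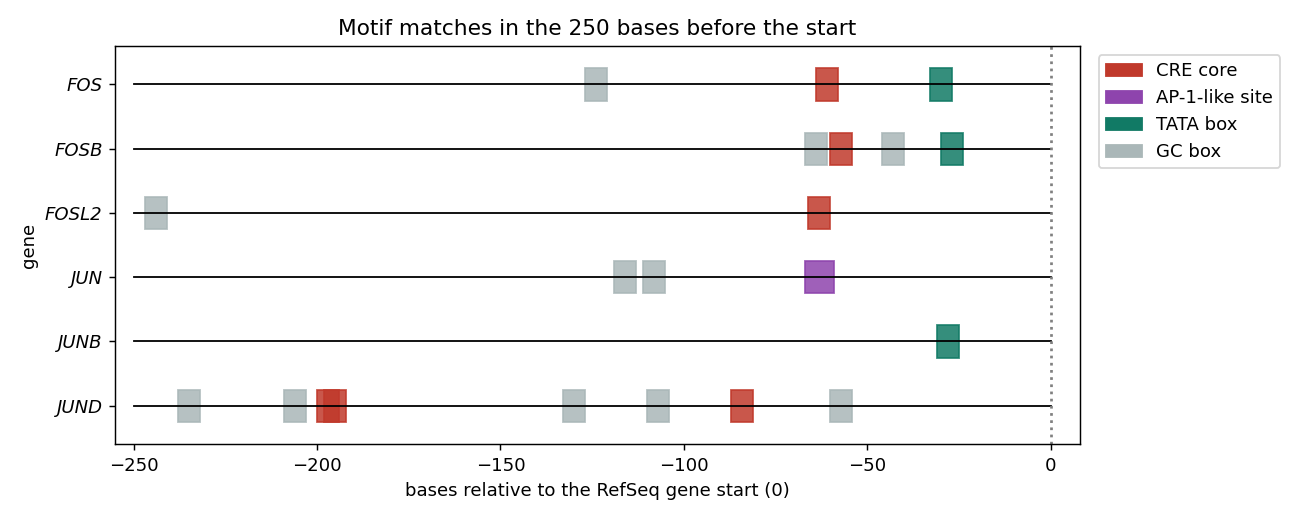
Map of motif matches in the 250 bases before the RefSeq start of 6 AP-1 genes; the horizontal axis is distance from the start in bases, each line is a gene and each box a match on either strand, with the cyclic AMP response element core in red, the AP-1-like site in purple, TATAAA in green and GGGCGG in grey. The cyclic AMP response element core of FOS, FOSB and FOSL2 and the AP-1-like site of JUN all begin between 60 and 67 bases before the start.

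Levels can be compared between genes only per length, so CPM was divided by the length of each gene's main transcript. On this scale JUN averaged highest in each of the 6 groups, JUND was next and JUNB followed. With Torin1 and 1 h of feeding, JUN averaged 75.8 ± 10.8, JUND 47.3 ± 3.83 and JUNB 8.72 ± 0.561 CPM per kb (SD, n = 3), against 160 (range 138 to 177), 87.6 ± 5.42 and 27.0 ± 4.35 CPM per kb in 1 h fed cells without Torin1. JUN and JUND overlapped in starved cells without Torin1, with JUN at 63.0 to 113 and JUND at 65.3 to 87.1 CPM per kb. They did not overlap in the other groups. All counts of a gene were divided by the length of its main transcript, although other transcripts held part of them. A 500-base transcript, JUND-202, held 19.5% of JUND counts, and the main FOSB transcript was assigned 0% in starved cells with Torin1. The effect of this on the order of the genes was not tested.

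The FOS family genes lay lower. With Torin1 and 1 h of feeding, FOSB averaged 7.86 ± 2.56 CPM per kb, and its range of 4.96 to 9.81 spanned that of JUNB, 8.14 to 9.26. FOS followed at 3.01 ± 0.857, FOSL2 at 1.73 ± 0.0685 and FOSL1 at 0.940 ± 0.348 CPM per kb. In 1 h fed cells without Torin1 the order was FOS at 8.14 ± 2.36, FOSL1 at 5.73 ± 0.80, FOSB at 5.02 ± 1.34 and FOSL2 at 0.809 ± 0.260 CPM per kb, with FOS, FOSL1 and FOSB overlapping. The FOS family's share of the summed per-length level of all 7 genes with Torin1 was 2.84% ± 0.544 in starved cells, 9.24% ± 1.67 after 1 h and 4.82% ± 1.42 after 4 h. Without Torin1 these shares were 6.17% ± 0.246, 6.65% ± 1.09 and 3.48% ± 0.276 at the same times.

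**Figure D2:**
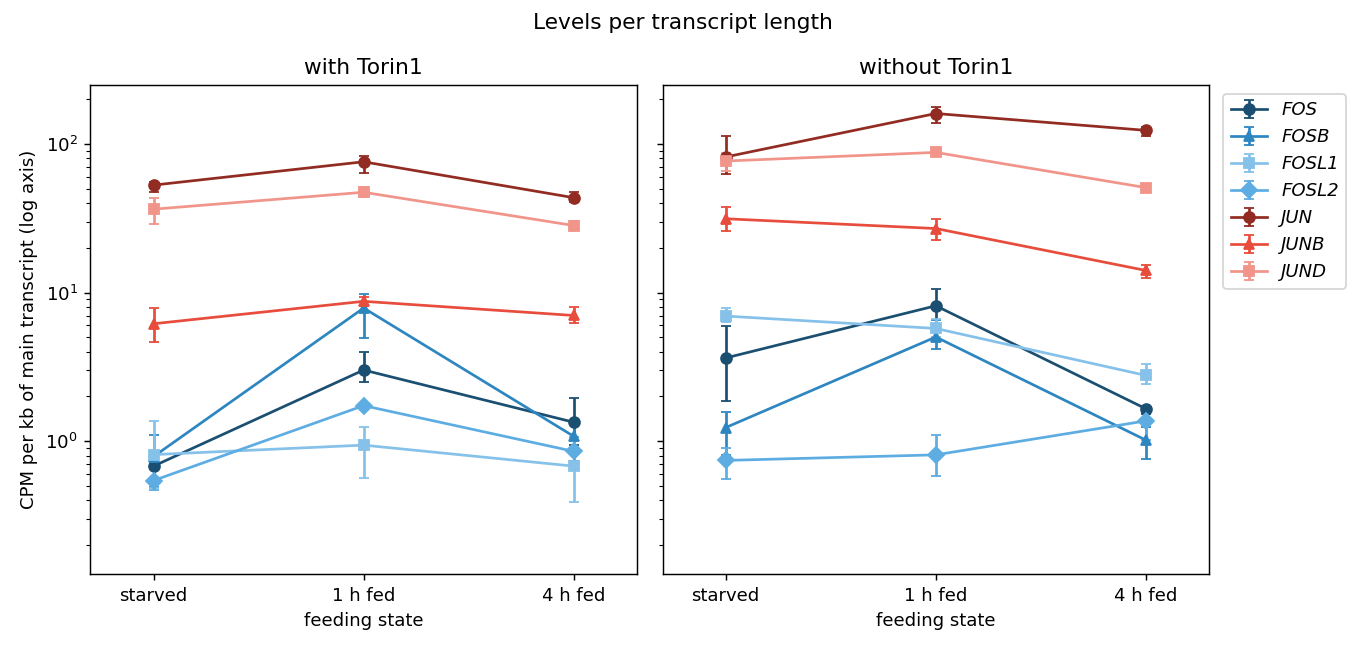
CPM per kb of the main transcript (vertical log axis) by feeding state, with Torin1 on the left and without on the right; points are means of 3 libraries and bars run from the lowest to the highest library. JUN lies highest and JUND next in each group, and FOSB with Torin1 averages 7.86 CPM per kb after 1 h of feeding, near JUNB at 8.72.

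Tests were edgeR quasi-likelihood F tests over all 16414 genes, with p values adjusted by the Benjamini-Hochberg method, and a gene was called at an adjusted p under 0.05. Values per library are CPM with TMM scaling (trimmed mean of M values), and changes are log2 fold changes with their standard error (SE). After 1 h of feeding with Torin1, 3 of 7 AP-1 genes (FOS, FOSB and FOSL2) were called higher than in starved cells with Torin1, where 0.402% of all genes were called, 0.274% higher. After 1 h of feeding without Torin1, 2 of 7 (FOSB and JUN) were called higher, where 0.646% of all genes were called, 0.481% higher. The median change of the 7 was 0.52 with Torin1 and 0.19 without, beside medians of 0.02 and 0.01 over all genes.

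After 4 h of feeding with Torin1, 0 of 7 were called against starved cells with Torin1 by edgeR, limma-voom or the DESeq2 Wald test. At the adjusted threshold, 1.8% of all genes were called, 0.829% higher and 0.975% lower. In edgeR 3 of the 7 had an unadjusted p under 0.05, for which the share of all genes was not computed. After 4 h of feeding without Torin1, FOSL2 and JUN were called higher and FOS, FOSL1, JUNB and JUND lower, 6 of 7, where 42.3% of all genes were called, 23.2% higher and 19.1% lower. From 1 h to 4 h of feeding with Torin1, 3 of 7 fell (FOSB, FOSL2 and JUND), beside 1.47% of all genes called, 0.896% lower. Without Torin1, 5 of 7 fell over the same interval and FOSL2 rose, beside 39.8% of all genes called, 18.1% lower and 21.7% higher.

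With Torin1, 5 of 7 AP-1 genes were lower in starved cells than without it and 2 were not called, where 63.5% of all genes were called, 33.9% higher and 29.6% lower. In 1 h fed cells 5 were lower and 2 higher with Torin1, where 63.1% were called, 29.9% lower and 33.2% higher. In 4 h fed cells 5 were lower and 2 not called, where 56% were called, 28.6% lower and 27.4% higher. The medians of the 7 in these comparisons were -1.07, -1.08 and -0.85, beside 0.09, 0.06 and 0.02 over all genes. More than 50% of all genes were called in each Torin1 comparison, so counts of members called say little beside the background, and the sizes are given gene by gene. With total counts as the scale, the all-gene median shifted by 0.14 for starved, 0.11 for 1 h fed and 0.16 for 4 h fed cells, and no called AP-1 change turned its sign.

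**Figure D3:**
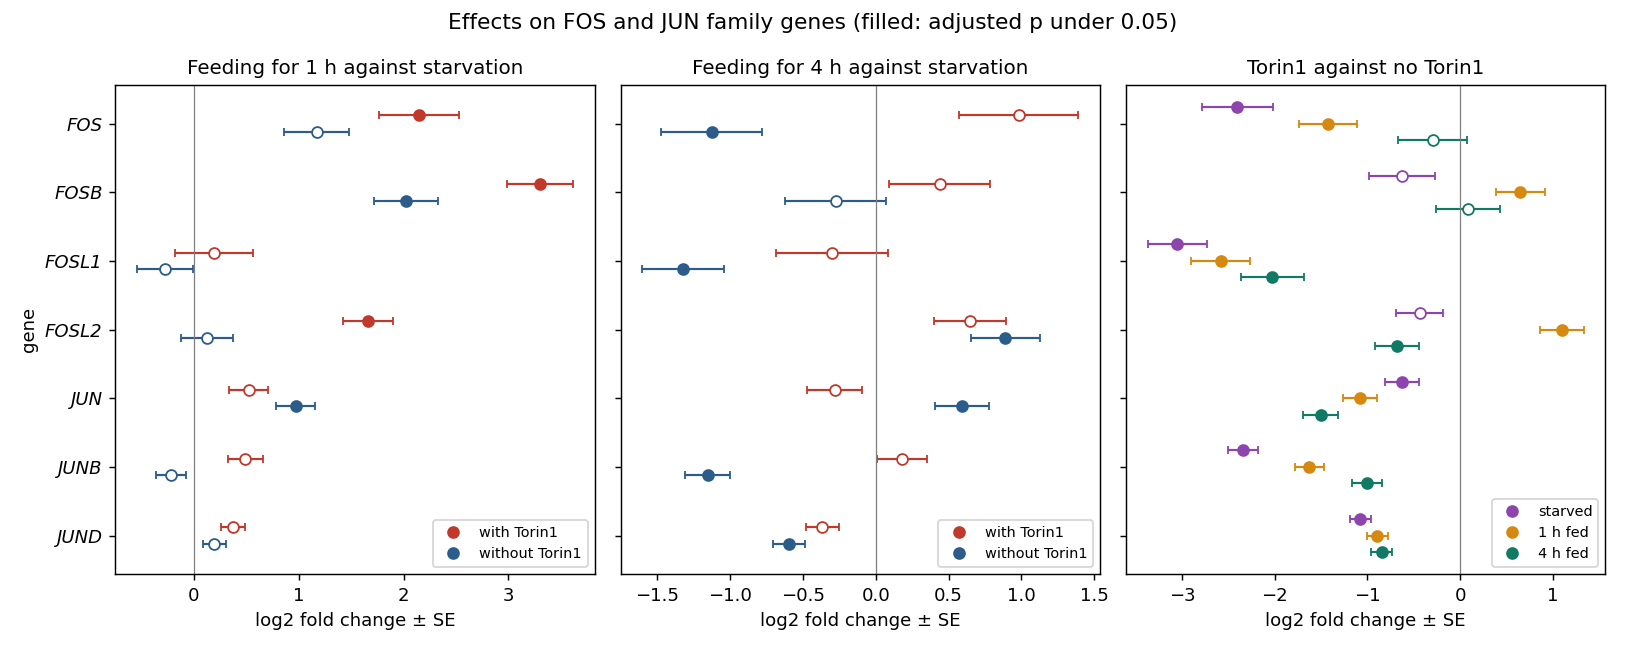
Log2 fold changes (horizontal axis, bars are SE) of the 7 AP-1 genes for 1 h of feeding, 4 h of feeding and Torin1, from the fit over 18 libraries; filled points have an adjusted p under 0.05. FOSB and FOSL2 lie to the right for Torin1 in 1 h fed cells, at 0.65 and 1.10, while the other 5 genes lie to the left, between -2.58 and -0.89.

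FOS (ENSG00000170345), the founding member of its family, had 1.46, 1.44 and 1.49 CPM in starved cells with Torin1, 5.47, 5.38 and 8.63 CPM after 1 h of feeding and 4.20, 2.44 and 2.04 CPM after 4 h. In the series without Torin1, FOS had 12.9, 6.52 and 4.04 CPM in starved cells, 22.9, 12.7 and 17.2 CPM after 1 h and 3.68, 3.26 and 3.75 CPM after 4 h. FOS was thus highest at 1 h in both series, and the starved libraries without Torin1 were widely spread. The 17 to 21 reads behind each starved library with Torin1 limit the precision of that group.

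Feeding for 1 h raised FOS by 2.15 with Torin1 (SE 0.38, edgeR adjusted p = 0.00867), with all 3 fed libraries above the starved ones. That call was lost with limma-voom (adjusted p = 0.0921) and when any starved library or 1 h fed replicate 3 of the Torin1 series was left out, at values of 1.88 to 2.16. Without Torin1 the change was 1.17 (SE 0.31, edgeR adjusted p = 0.103), which was not called, and the groups overlapped by 1 fed library. Without starved replicate 1 it was 1.73 and called (edgeR adjusted p = 0.00232). It was also called with the DESeq2 Wald test (adjusted p = 0.0283), with limma-voom (adjusted p = 0.0399) with no filter (adjusted p = 1.18e-04) and with the replicate block (adjusted p = 0.0177).

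By 4 h without Torin1, FOS had fallen by 2.30 from its 1 h level (SE 0.34, edgeR adjusted p = 8.32e-06). It lay 1.13 below starved cells on the log2 scale, written -1.13 (SE 0.35, edgeR adjusted p = 0.0117), a call lost without starved replicate 1, at -0.58 (edgeR adjusted p = 0.149), and with limma-voom (adjusted p = 0.0659). With Torin1 the change from 1 h to 4 h was -1.17 (SE 0.35, edgeR adjusted p = 0.0941), and without 4 h fed replicate 1 of that series it was -1.54 and called (edgeR adjusted p = 0.0461). It was also called with no filter (adjusted p = 7.77e-04), the DESeq2 Wald test (adjusted p = 0.0286), the fit of the 2 groups alone (adjusted p = 0.0193) and the replicate block (adjusted p = 0.0237). Torin1 lowered FOS in starved cells by a log2 change of -2.40 (SE 0.38, edgeR adjusted p = 9.79e-06) and in 1 h fed cells by -1.43 (SE 0.31, edgeR adjusted p = 3.82e-04). In 4 h fed cells the Torin1 change was -0.30, with a 95% interval of -1.07 to 0.47, and the groups overlapped.

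FOSB (ENSG00000125740), whose product pairs with JUN proteins as FOS does, had 4.18, 1.84 and 2.90 CPM in starved cells with Torin1, 18.7, 33.3 and 37.0 CPM after 1 h and 5.20, 3.58 and 3.42 CPM after 4 h. The series without Torin1 had 5.93, 5.01 and 3.03 CPM in starved cells, 24.8, 16.4 and 15.7 CPM after 1 h and 3.94, 2.88 and 4.68 CPM after 4 h. All 6 libraries of 1 h fed cells stood above the other 12. FOSB rose 9.87-fold at 1 h with Torin1, a log2 change of 3.30 (SE 0.31, edgeR adjusted p = 6.17e-06), and 4.06-fold without Torin1, 2.02 (SE 0.31, edgeR adjusted p = 0.00246). Both calls held with each library of their groups left out.

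FOSB fell again by 4 h, by a log2 change of -2.86 with Torin1 (SE 0.30, edgeR adjusted p = 1.27e-05) and -2.30 without it (SE 0.31, edgeR adjusted p = 6.37e-06). In 1 h fed cells FOSB was 0.65 higher with Torin1 than without (SE 0.26, edgeR adjusted p = 0.0385), although the groups overlapped. That call was lost with DESeq2 size factors (adjusted p = 0.0521), in the fit of the 2 groups alone (adjusted p = 0.0657) and without 1 h fed replicate 2 or 3 of either series, at values of 0.46 to 0.56. In starved cells the Torin1 change was -0.63 (SE 0.35, edgeR adjusted p = 0.129). It was called without starved replicate 1 with Torin1 (-0.98), without starved replicate 3 of the series that lacked Torin1 (-0.86) with the DESeq2 Wald test (adjusted p = 0.0440) and with no filter (adjusted p = 0.0263). In 4 h fed cells it was 0.09, with a 95% interval of -0.64 to 0.81.

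FOSL1 (ENSG00000175592), which encodes FRA-1, had 2.30, 0.801 and 0.965 CPM in starved cells with Torin1, 0.941, 1.68 and 2.09 CPM after 1 h and 1.07, 1.68 and 0.655 CPM after 4 h. Cells without Torin1 had 13.2, 10.6 and 10.9 CPM in starved cells, 11.02, 8.39 and 9.29 CPM after 1 h and 5.51, 4.03 and 4.31 CPM after 4 h. Each library with Torin1 lay below each library without it. The Torin1 libraries held 9 to 33 FOSL1 reads, so differences among them were poorly resolved.

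Torin1 lowered FOSL1 by a log2 change of -3.05 in starved cells (SE 0.32, edgeR adjusted p = 1.07e-09). In 1 h fed cells the change was -2.58 (SE 0.32, edgeR adjusted p = 2.34e-08) and in 4 h fed cells -2.03 (SE 0.34, edgeR adjusted p = 8.27e-06). Feeding for 1 h without Torin1 gave -0.28 (SE 0.27, edgeR adjusted p = 0.821), with overlapping groups, and -0.17 without starved replicate 1. After 4 h without Torin1, FOSL1 had fallen by 1.32 below starved cells on the log2 scale (SE 0.28, edgeR adjusted p = 3.01e-04). With Torin1 the change after 1 h was 0.19 and after 4 h -0.30, and neither was called.

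FOSL2 (ENSG00000075426), which encodes FRA-2, had 4.39, 3.13 and 3.42 CPM in starved cells with Torin1, 12.1, 11.7 and 11.1 CPM after 1 h and 7.12, 5.11 and 4.95 CPM after 4 h. Without Torin1 it had 6.03, 3.76 and 5.14 CPM in starved cells, 7.34, 5 and 3.93 CPM after 1 h and 11.2, 9.50 and 6.84 CPM after 4 h. The highest of the 3 feeding states was thus 1 h with Torin1 and 4 h without it.

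With Torin1, FOSL2 rose by 1.66 at 1 h (SE 0.24, edgeR adjusted p = 1.41e-04) and fell by 1.02 from 1 h to 4 h (SE 0.23, edgeR adjusted p = 0.0150). The fall lost its call without 1 h fed replicate 1 or 2 or 4 h fed replicate 2 or 3 of the Torin1 series, at -1.02 to -0.93. Without Torin1 the 1 h change was 0.13, with a 95% interval of -0.38 to 0.64, or 0.29 without starved replicate 1, also not called. At 4 h FOSL2 had risen by 0.89 over starved cells (SE 0.24, edgeR adjusted p = 0.00323). It had also risen by 0.76 over 1 h fed cells (SE 0.24, edgeR adjusted p = 0.0107), with overlapping groups and no call without 1 h fed replicate 3 (0.57) or 4 h fed replicate 1 (0.59).

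Torin1 raised FOSL2 in 1 h fed cells by 1.10 (SE 0.23, edgeR adjusted p = 1.39e-04), with all 3 libraries above those without it. In 4 h fed cells FOSL2 fell by 0.68 with Torin1 (SE 0.23, edgeR adjusted p = 0.0137), with overlapping groups. That call was lost with total counts (adjusted p = 0.0616) and without 4 h fed replicate 1 (-0.51) or 4 h fed replicate 2 or 3 with Torin1 (-0.61 and -0.59). In starved cells the Torin1 change was -0.43 (SE 0.26, edgeR adjusted p = 0.140), and -0.28 without starved replicate 1 of the series that lacked Torin1.

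JUN (ENSG00000177606), the main partner of FOS proteins and able to bind DNA as a homodimer, had 195, 169 and 197 CPM in starved cells with Torin1, 224, 287 and 293 CPM after 1 h and 145, 149 and 167 CPM after 4 h. Without Torin1 it had 399, 245 and 223 CPM in starved cells, 625, 587 and 488 CPM after 1 h and 462, 400 and 448 CPM after 4 h. Both series were highest at 1 h, and the 1 h fed libraries of each lay above all starved and 4 h fed libraries of that series.

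Without Torin1, JUN rose at 1 h by 0.97 (SE 0.19, edgeR adjusted p = 0.0315). The call was lost when starved replicate 2, starved replicate 3 or any 1 h fed library was left out, at 0.82 to 1.07, and it was kept without starved replicate 1, at 1.28 (edgeR adjusted p = 6.37e-07). It was also lost with total counts (adjusted p = 0.0552) and when the 2 groups were fitted alone (adjusted p = 0.352). With Torin1 the 1 h change was 0.52 (SE 0.19, edgeR adjusted p = 0.341), which was not called. At 4 h without Torin1, JUN stood 0.60 above starved cells (SE 0.19, edgeR adjusted p = 0.0194), a call lost on leaving out starved replicate 2, starved replicate 3, 4 h fed replicate 1 or 4 h fed replicate 3, at 0.44 to 0.58, or in the fit of these groups alone. Without starved replicate 1 it was 0.89 (edgeR adjusted p = 9.10e-07).

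Torin1 lowered JUN by a log2 change of -0.63 in starved cells (SE 0.19, edgeR adjusted p = 0.00957), and without starved replicate 1 the change was -0.33 (edgeR adjusted p = 0.0151). In the fit of the 2 groups alone it was not called (adjusted p = 0.0898). In 1 h fed cells the change was -1.08 (SE 0.19, edgeR adjusted p = 1.69e-04) and in 4 h fed cells -1.51 (SE 0.19, edgeR adjusted p = 1.19e-05). From 1 h to 4 h the changes of -0.80 with Torin1 (edgeR adjusted p = 0.0550) and -0.38 without it (edgeR adjusted p = 0.124) were not called, although the groups did not overlap. Both were called in the fit of the 2 groups alone (adjusted p = 0.00936 and 0.00839), and the change with Torin1 also with the DESeq2 Wald test (adjusted p = 0.00414).

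JUNB (ENSG00000171223), a JUN protein that activates simple AP-1 sites more weakly than JUN, had 14.3, 8.41 and 10.97 CPM in starved cells with Torin1, 16.9, 16.0 and 14.8 CPM after 1 h and 14.5, 11.4 and 12.4 CPM after 4 h. Without Torin1 it had 68.9, 54.9 and 47.4 CPM in starved cells, 56.6, 40.8 and 49.7 CPM after 1 h and 27.7, 26.2 and 22.9 CPM after 4 h. Each library with Torin1 lay below each library without it. The Torin1 change was -2.34 in starved cells (SE 0.16, edgeR adjusted p = 7.26e-13), -1.63 in 1 h fed cells (SE 0.16, edgeR adjusted p = 5.78e-10) and -1.004 in 4 h fed cells (SE 0.16, edgeR adjusted p = 6.96e-06).

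Feeding for 1 h left JUNB without a call, at 0.49 with Torin1 (SE 0.17, edgeR adjusted p = 0.280) and -0.22 without it (SE 0.15, edgeR adjusted p = 0.693), the last being -0.06 without starved replicate 1. After 4 h without Torin1 it had fallen by 1.15 below starved cells on the log2 scale (SE 0.15, edgeR adjusted p = 4.76e-07). The single exon of JUNB overlaps HOOK2 on the opposite strand, where HOOK2 had 143 to 457 counts per library. How the counting used strand is not stated, so reads of the 2 genes may be shared.

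JUND (ENSG00000130522), known for restraining growth in some settings, had 80.5, 53.6 and 69.1 CPM in starved cells with Torin1, 85.6, 96.1 and 82.4 CPM after 1 h and 49.6, 51.7 and 56.5 CPM after 4 h. Without Torin1 it had 162, 145 and 122 CPM in starved cells, 163, 153 and 173 CPM after 1 h and 92.7, 91.9 and 99.1 CPM after 4 h. The 4 h fed libraries lay below the 1 h fed ones in both series. JUND fell from 1 h to 4 h by 0.74 with Torin1 (SE 0.11, edgeR adjusted p = 3.25e-04) and by 0.79 without it (SE 0.11, edgeR adjusted p = 1.54e-06). Torin1 lowered it by a log2 change of -1.07 in starved cells (SE 0.11, edgeR adjusted p = 2.46e-09), -0.89 in 1 h fed cells (SE 0.11, edgeR adjusted p = 6.23e-08) and -0.85 in 4 h fed cells (SE 0.11, edgeR adjusted p = 3.95e-07). The 1 h feeding changes of 0.38 with Torin1 and 0.19 without it, 0.29 without starved replicate 1, were not called. With no filter the change with Torin1 was called (adjusted p = 0.0291). Without starved replicate 1 of the Torin1 series the change with Torin1 was 0.52 and called (edgeR adjusted p = 0.0399). The 4 h change with Torin1, -0.37, was called without starved replicate 2 of that series, at -0.51 (edgeR adjusted p = 0.0133), and with no filter (adjusted p = 0.0119).

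**Figure D4:**
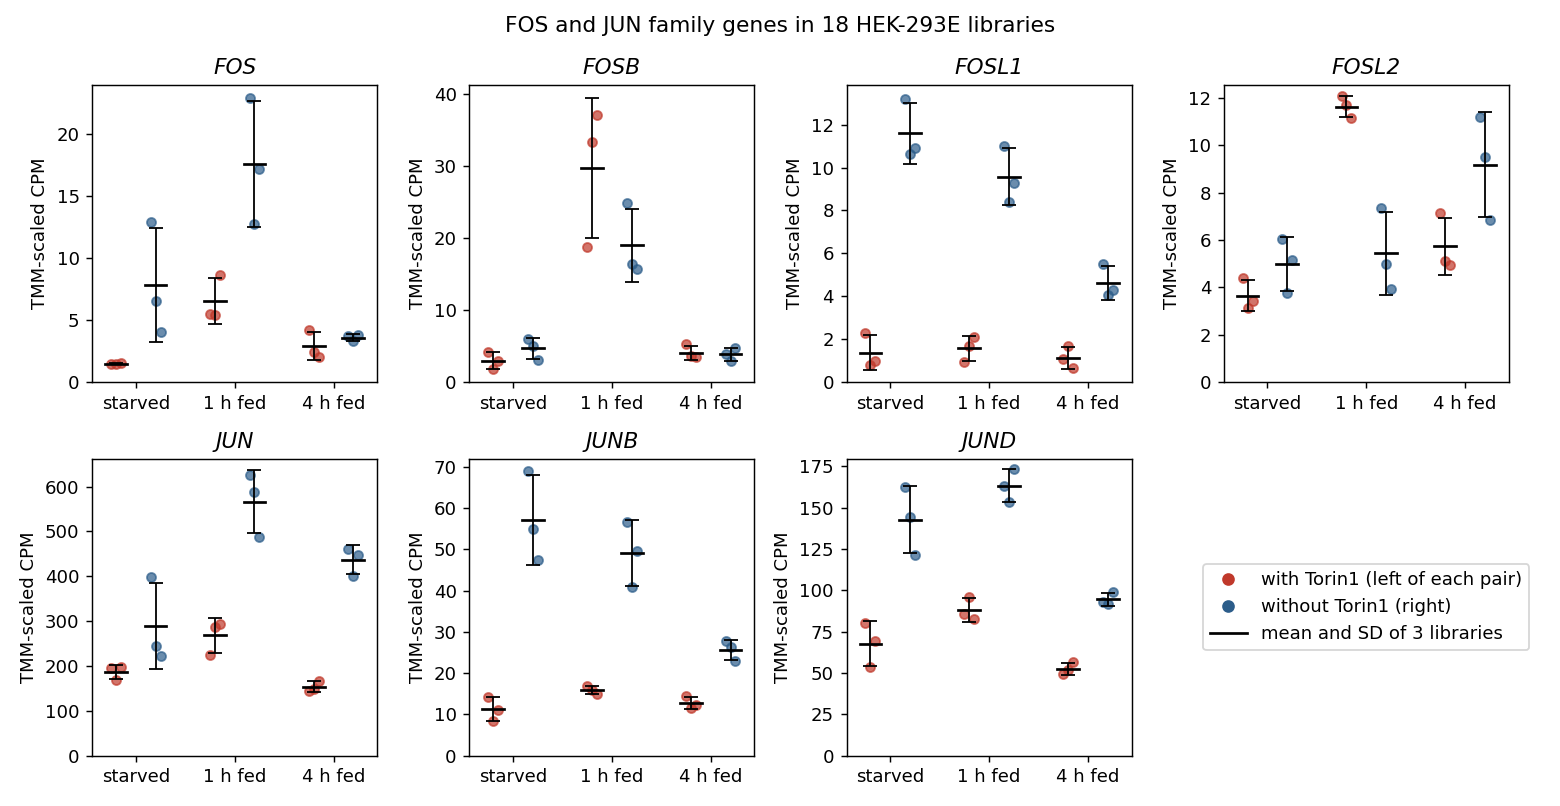
TMM-scaled CPM of each AP-1 gene (vertical axes start at 0) by feeding state, with Torin1 left of each pair and without Torin1 right; points are libraries, black lines are means and bars are SD (n = 3). FOSB peaks at 1 h in both series, FOSL2 at 1 h with Torin1 and at 4 h without it, and FOSL1 and JUNB are lower in every library with Torin1 than in every library without it.

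Whether feeding acted differently with Torin1 was tested as an interaction, the feeding change with Torin1 minus that without it. At 1 h, 0 of 7 AP-1 genes were called by edgeR or limma-voom and 1, FOSL2, by the DESeq2 Wald test (adjusted p = 0.0155). At the adjusted threshold edgeR called 0.067% of all genes, 0.0122% above 0 and 0.0548% below. In edgeR 3 of the 7, FOSL2, JUNB and FOSB, had an unadjusted p under 0.05, for which the share of all genes was not computed. The largest interaction at 1 h was that of FOSL2, 1.54, with a 95% interval of 0.83 to 2.24 (edgeR adjusted p = 0.0989). Without 1 h fed replicate 1 it was 1.81 and called (edgeR adjusted p = 0.0190), as it was with no filter (adjusted p = 0.00598) and the replicate block (adjusted p = 0.0188). For FOSB the interaction was 1.28 (SE 0.44, edgeR adjusted p = 0.540), which was called with no filter (adjusted p = 0.0105). For JUN it was -0.45 (SE 0.26, edgeR adjusted p = 0.811), and -0.75 without starved replicate 1 (SE 0.15, edgeR adjusted p = 0.0633).

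At 4 h, 3 of 7 were called, where 25.8% of all genes were called, 9.74% above 0 and 16% below. FOS had an interaction of 2.11 (SE 0.54, edgeR adjusted p = 0.00531), from a feeding change of 0.98 with Torin1, not called, against -1.13 without it. JUNB had 1.33 (SE 0.23, edgeR adjusted p = 5.94e-05), from 0.18 with Torin1, not called, against -1.15 without it. JUN had -0.88 (SE 0.26, edgeR adjusted p = 0.0258), from -0.28 with Torin1, not called, against 0.60 without it. The FOS interaction was not called with limma-voom (adjusted p = 0.0549), and without starved replicate 1 it was 1.55 (edgeR adjusted p = 0.0110). The JUN call was lost in 7 of the 12 fits that each left out a library of these groups, at -0.86 to -0.77.

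Across the 18 libraries, the AP-1 genes did not follow a common course. FOSL1 and JUNB were most alike, with a Pearson r of 0.95 on log2 CPM, followed by JUNB and JUND at 0.93 and FOSL1 and JUND at 0.90. FOSL2 was unlike these 3, with r of -0.05, 0.01 and 0.02 for FOSL1, JUNB and JUND, and FOS and FOSB gave 0.73. These are descriptions over 6 groups of 3 libraries that share treatments, with no test.

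Outside the family, the 3 genes most like each member over the 18 libraries were listed by the same measure. For FOS they were EGR2 (r = 0.94), EGR1 (r = 0.94) and CPEB3 (r = 0.88). EGR1, a zinc finger immediate early factor, averaged 3.22 CPM in starved cells, 24.3 CPM after 1 h and 4.86 CPM after 4 h with Torin1 and 14.8, 105 and 11.95 CPM without it. For FOSB they were EGR3 (r = 0.92), FOXK2 (r = 0.83) and DUSP5 (r = 0.80), where EGR3 averaged 0.529, 16.2 and 0.676 CPM with Torin1 and 3.59, 14.4 and 1.39 CPM without it. The Torin1 change of EGR3 in 1 h fed cells, 0.17 (SE 0.26, edgeR adjusted p = 0.571), was not called.

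For FOSL1 the most alike were EIF3K, a subunit of a translation initiation factor (r = 0.98), CFDP1 (r = 0.97) and TMEM52 (r = 0.97). For FOSL2 they were SIK3 (r = 0.81), GTF2E1 (r = 0.77) and TWF2 (r = 0.77), which were weaker. For JUN they were MED26, a Mediator subunit (r = 0.90), E2F3 (r = 0.89) and FAM53C (r = 0.89). For JUNB they included SDE2 (r = 0.99) and GTF2H1 (r = 0.98), and for JUND they were RASSF1 (r = 0.96), the immediate early gene IER2 (r = 0.95) and KLHL13 (r = 0.95).

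The other dimer partners of the bZIP class (ATF, BATF, JDP2 and MAF proteins) numbered 14 on the list, of which 13 passed the filter. Torin1 lowered 9 of 13 in starved cells and 9 of 13 in 1 h fed cells, with none higher, where 29.6% and 29.9% of all genes were lower. It lowered 7 and raised 1 in 4 h fed cells, where 28.6% of all genes were lower and 27.4% higher, and 4 or 5 were called in all without 4 h fed replicate 1, or 4 h fed replicate 1 or 2 with Torin1. MAFG, a small MAF protein, averaged 50.7 ± 3.80 CPM in starved cells with Torin1, against 153 ± 16.0 CPM without it (SD, n = 3), a log2 change of -1.59 (SE 0.10, edgeR adjusted p = 5.19e-14). NRL changed by -2.62 (SE 0.31) and MAFK by -1.23 (SE 0.15) in the same comparison, where the list's median was -1.23, beside 0.09 over all genes. At 1 h of feeding with Torin1, 1 of 13 was called, where 0.402% of all genes were called. This was ATF3, a stress-induced partner of JUN proteins, with 61.8 ± 13.1 CPM after 1 h, against 22.7 ± 1.49 CPM in starved cells. Its rise was 1.45 (SE 0.23, edgeR adjusted p = 0.0154). That call was lost when any starved library, 1 h fed replicate 2 or 1 h fed replicate 3 of the Torin1 series was left out, at 1.29 to 1.498. Without Torin1, where edgeR called 0.646% of all genes, 0 of 13 were called at 1 h by edgeR, the DESeq2 Wald test or limma-voom. In edgeR 4 of the 13 had an unadjusted p under 0.05, for which the share of all genes was not computed. After 4 h without Torin1, 8 fell, where 19.1% of all genes were lower.

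All 19 genes that drive FOS and JUN transcription (serum response factor and its cofactors, CREB and MEF2 factors and their kinases) passed the filter. Torin1 lowered 13 and raised 2 in starved cells, lowered 12 and raised 3 in 1 h fed cells, and lowered 8 and raised 4 in 4 h fed cells, where 29.6%, 29.9% and 28.6% of all genes were lower and 33.9%, 33.2% and 27.4% higher. SRF, which binds the CArG box, averaged 82.4 ± 5.68 CPM in starved cells with Torin1, against 207 ± 14.1 CPM without it, a log2 change of -1.33 (SE 0.09, edgeR adjusted p = 2.75e-13). ELK4, an SRF cofactor, changed by -1.28 (SE 0.12). SRF was the 1 of 19 called at 1 h of feeding with Torin1, where 0.402% of all genes were called. Its rise was 0.53 (SE 0.09, edgeR adjusted p = 0.00284), which was 0.48 and not called without starved replicate 2 (edgeR adjusted p = 0.0538). Without Torin1, where edgeR called 0.646% of all genes, 0 of 19 were called at 1 h by edgeR, the DESeq2 Wald test or limma-voom. In edgeR 1 of the 19 had an unadjusted p under 0.05, for which the share of all genes was not computed. After 4 h without Torin1, 9 fell and 2 rose, where 19.1% of all genes were lower and 23.2% higher. Among those that rose was CREB1, which binds the cyclic AMP response element, at 0.71 (SE 0.12, edgeR adjusted p = 9.81e-06).

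All 13 genes known to restrain or degrade FOS and JUN RNA or protein passed as well. Torin1 raised 6 and lowered 5 of them in starved cells, where 33.9% of all genes were higher and 29.6% lower. MEN1, whose product menin binds and represses JUND, averaged 125 ± 5.64 CPM in starved cells, 122 ± 6.45 after 1 h and 123 ± 7.36 after 4 h with Torin1, and 21.7 ± 1.88, 25.2 ± 2.60 and 144 ± 8.38 CPM without it. Its Torin1 change in starved cells was 2.53 (SE 0.10, edgeR adjusted p = 5.79e-19), and feeding for 4 h without Torin1 raised it by 2.73 (SE 0.10, edgeR adjusted p = 3.47e-19). In 4 h fed cells its Torin1 change was -0.23 (SE 0.08, edgeR adjusted p = 0.0223). ZFP36L2, which destabilises AU-rich RNAs, fell by 1.11 with Torin1 in starved cells on the log2 scale (SE 0.10).

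Of 20 textbook AP-1 target genes 12 passed the filter, and the 8 that did not include MMP1, MMP3, MMP9, MMP10 and IL6. Torin1 raised 5 and lowered 5 of the 12 in starved cells and likewise in 1 h fed cells, where 33.9% and 33.2% of all genes were higher and 29.6% and 29.9% lower. VIM, the intermediate filament vimentin, rose by 0.85 with Torin1 in starved cells (SE 0.09, edgeR adjusted p = 4.17e-09). HMOX1, heme oxygenase, averaged 5.90 ± 1.52 CPM in starved cells with Torin1, against 19.6 ± 7.11 CPM without it, a change of -1.72 (SE 0.22). CCND1, cyclin D1, averaged 15.5 ± 0.669 CPM in 4 h fed cells with Torin1, against 42.4 ± 1.06 CPM without it, a change of -1.45 (SE 0.11, edgeR adjusted p = 3.30e-12). At 1 h of feeding 0 of 12 were called by edgeR with or without Torin1, where 0.402% and 0.646% of all genes were called. An unadjusted p under 0.05 was found in edgeR for 1 and 2 of the 12, and the share of all genes at that threshold was not computed. The DESeq2 Wald test called 1 with Torin1 and 0 without it, and limma-voom 0 in both.

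The other serum-induced immediate early genes give a measure of the early response beside AP-1, and all 28 passed. At 1 h of feeding with Torin1, 7 of 28 rose and 1 fell, where 0.274% of all genes were higher and 0.128% lower. Without Torin1 EGR3, EGR1 and SIK1 rose, 3 of 28, where 0.481% of all genes were higher and 0.164% lower. The list's medians were 0.46 with Torin1 and 0.25 without it, beside 0.02 and 0.01 over all genes. The 8 calls with Torin1 became 4 without starved replicate 2 or 3 and 5 without 1 h fed replicate 3. Without Torin1 the call of SIK1 was lost when starved replicate 2 or 3 or 1 h fed replicate 1 or 2 was left out, at 1.18 to 1.44. It was also lost with total counts (edgeR adjusted p = 0.0520). In the fit of the 2 groups alone the calls of SIK1 (edgeR adjusted p = 0.119) and EGR1 (edgeR adjusted p = 0.139) were lost. EGR3 rose by 4.87 with Torin1 (SE 0.37, edgeR adjusted p = 9.62e-10) and by 2.01 without it (SE 0.29, edgeR adjusted p = 3.30e-04). The interaction at 1 h was called for EGR3, 2.86 (SE 0.49, edgeR adjusted p = 0.0112), and for SIK1, -2.47 (SE 0.49, edgeR adjusted p = 0.0414). The EGR3 interaction lost its call without starved replicate 2 or 3 with Torin1 (2.69 and 2.66) and with limma-voom (adjusted p = 0.205). The SIK1 interaction lost its call without any of 8 of the 12 libraries, at -2.60 to -2.22. It also lost it with limma-voom (adjusted p = 0.0577) and in the edgeR fit of the groups alone (adjusted p = 0.0780). Torin1 lowered 20 of 28 and raised 2 in starved cells, where 29.6% of all genes were lower and 33.9% higher, with a median of -1.17, next to a median of -1.07 for the AP-1 genes. DUSP1 and ZFP36 stand on this list and also on that of the targets and of the restraining genes.

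The deposited table of isoform counts gave the transcripts behind these levels, matched to GENCODE release 29 and described with no test. JUN and JUNB each had only 1 matched transcript, JUN-201 and JUNB-201, with a single exon, so their shares of 100% were fixed in advance. FOSL2-201 held 92.0%, FOS-201 87.9%, JUND-201 80.5% and FOSL1-201 78.5% of their gene's counts over all libraries. The JUND-201 share ranged from 72.4% to 85.7% between libraries. FOSB was the most divided: FOSB-201, with 338 codons, held 60.3% of its counts. FOSB-211, with 237 codons, the length of the truncated form known as delta FosB, held 98 counts in all, or 4.21%. At FOSB's low counts the split moved widely, and FOSB-201 was assigned 0% in the 3 starved libraries with Torin1 and in 4 h fed replicate 1 without it, and 24.7% to 87.6% in the others. The other FOS family genes moved widely too. FOS-201 ranged from 0% in starved replicate 3 with Torin1 to 100%. FOSL1-201 ranged from 0% in starved replicate 2 and 4 h fed replicate 2 with Torin1 to 100%. FOSL2-201 ranged from 46.1% in 1 h fed replicate 1 with Torin1 to 100%.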

How the data were processed

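RNA of 18 HEK-293E libraries was sequenced, and the authors deposited expected counts per gene, that is, estimated counts by RSEM after alignment with STAR in a 2-pass procedure, per the labels' protocols and the submitters' processing notes, which also name DESeq2, all without versions. The protocol names a C. elegans build, whereas the identifiers are human, and for the human build, the annotation and the strand setting nothing is stated, so reads of overlapping genes may be counted in either. Symbols were found for 60295 identifiers, and 3.32% of gene values were not whole and were rounded. A table of isoform counts, as deposited by the authors, was described only.

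Genes were filtered with filterByExpr (minimum count 10), then scaled by TMM. In R 4.3.3, edgeR 4.0.16 fitted 6 group means to the 18 libraries with robust dispersions, which left 12 residual degrees of freedom; the common biological CV was 10.6%. This gave 11 comparisons, each adjusted over 16414 genes at 0.05. SE is the absolute log2 fold change over the square root of F. The procedure was tested on simulated counts for 1 h of feeding without Torin1 only, with few genes changed. That test does not cover the comparisons in which most genes were called. Alternatives were the size factors and the Wald test of DESeq2 1.42.0, total counts, other filters (no filter, or at least 1 CPM in 3 libraries), limma-voom (limma 3.58.1), fitting the groups compared alone, a replicate block and leaving out each library. The labels do not say what a replicate number marks, so the main fit did not pair libraries by number. Named genes were the 7 members, the 3 tested genes of at least 1 CPM most correlated with each (log2 CPM, prior count 2), and up to 3 called genes of smallest p per list and comparison. Members and lists were chosen with earlier results of these data known, so their counts are not independent support. A few genes that this rule names are not reported here.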

Additional observations from a re-analysis of the deposited data

Results flagged for a closer look

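The feeding response at 4 h differed between cells with and without Torin1 for 3 of the 7 AP-1 genes, by the interaction term of the edgeR fit. By the same term 25.8% of all genes were called, 9.74% above 0 and 16% below. For FOS the difference was 2.11 (edgeR adjusted p = 0.00531): all 3 libraries of 4 h fed cells with Torin1 lay above the starved ones, and all 3 without Torin1 lay below theirs. For JUNB it was 1.33 (edgeR adjusted p = 5.94e-05), with overlap between 4 h fed and starved libraries with Torin1 and none without it. For JUN it was -0.88 (edgeR adjusted p = 0.0258), with 4 h fed libraries below starved ones with Torin1 and above them without it. The FOS interaction was not called with limma-voom (adjusted p = 0.0549). The JUN interaction lost its call in 7 of 12 fits that each left out a library. Leaving out starved replicate 1 without Torin1 gave a FOS feeding change without Torin1 of -0.58, not called (edgeR adjusted p = 0.149). With Torin1 none of these 3 feeding changes was called by edgeR over all libraries, the DESeq2 Wald test or limma-voom, JUN was called by edgeR with the groups alone (-0.28, adjusted p = 0.0351), and FOS had an unadjusted p of 0.0262. Starved cells with Torin1 were lower than starved cells without it for all 3, by -2.40, -2.34 and -0.63, so the feeding changes started from unequal levels. The part of that in the interactions was not tested.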

How the results depend on the processing

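Over the fold changes of single AP-1 genes in 11 comparisons, 534 alternatives of called results kept their call and direction, 44 lost the call and 0 changed sign. Of results that were not called, 549 stayed so, 28 gained a call and 7 changed sign. The number of AP-1 genes called at 1 h of feeding without Torin1 was 2, and 1 with total counts or the groups fitted alone, 3 with no filter, the DESeq2 Wald test, limma-voom or the replicate block, and between 1 and 3 on leaving out a library. At 4 h of feeding with Torin1 it was 0, and 1 with no filter (JUND) or the groups alone (JUN), and 0 to 1 with a library left out. At 1 h of feeding with Torin1 it was 3, and 2 to 4 over the other alternatives of the fit and 2 to 3 with a library left out. From 1 h to 4 h with Torin1 it was 3, and 5 with the DESeq2 Wald test or the groups alone, and 2 to 4 with a library left out. For the 1 h interaction it was 0, and 2 with no filter, 1 with the DESeq2 Wald test and 1 with the replicate block, and 0 to 1 with a library left out. The cause of these moves was not tested. The changes of sign were in uncalled values with a library left out: FOSL2 at 1 h without Torin1 (-0.14 to 0.31), FOSB for Torin1 in 4 h fed cells (-0.14 to 0.25), and FOSL1 with Torin1 at 1 h (-0.078 to 0.84) and at 4 h (-0.68 to 0.35).

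Over all genes, 106 were called at 1 h of feeding without Torin1, 167 with the DESeq2 Wald test, 164 with no filter and 39 with the groups alone, and 55 to 248 with a library left out. At 1 h with Torin1 66 became 119, 150 and 208 in the same order (22 to 45 with a library left out), at 4 h with Torin1 296 became 491 with the DESeq2 Wald test and 640 with the groups alone (134 to 189), and from 1 h to 4 h with Torin1 241 became 460, 364 and 725 (99 to 204). The 1 h interaction had 11 calls, 43 with the DESeq2 Wald test, 77 with no filter, 4 with the groups alone, 3 with limma-voom and 3 to 39 with a library left out. With total counts the share of higher calls was 62.6% in place of 49.0% for Torin1 in 4 h fed cells, 44.3% in place of 68.2% at 1 h with Torin1 and 61.2% in place of 39.0% from 1 h to 4 h with Torin1. Libraries of equal number deviated together in 4 of 45 pairs at r over 0.1 (range -0.11 to 0.16). Pairs of unequal number were not set beside these, so whether a number marks a shared batch or culture was not tested. With the replicate block, 110, 374 and 23 genes were called at 1 h with Torin1, from 1 h to 4 h with Torin1 and for the 1 h interaction, and FOS at 1 h without Torin1 was called (1.19, adjusted p = 0.0177). Depth limited FOSL1 with Torin1, at 9 to 33 reads a library, and FOS in starved cells with Torin1, at 17 to 21.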
